A study of Homo sapiens with 20 samples.

Results

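MYC and the proteins that share its dimerization partner MAX were followed in LP-1 and Raji cells exposed to a BET inhibitor. The set was listed by name as MYC, MYCN, MAX, MXD1, MXD3, MXD4, MXI1, MNT, MGA and MLX. Of these 10 genes, 9 had a probe set on the arrays that carried 1 gene symbol, among 22011 probe sets in all, and MGA was not analysed here. Where a gene had several such probe sets, the brightest over all arrays was used. LP-1 is a multiple myeloma line and Raji a Burkitt lymphoma line, a B cell tumour in which a translocation places MYC under immunoglobulin gene control.

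Each line was sampled in 5 groups of 2 biological replicates, which gives 10 groups and 20 arrays. Untreated cells were collected at 0 h. The other groups received 500 nM of the BET inhibitor, or 500 nM of its inactive enantiomer, for 4 h or for 8 h. The enantiomer is the mirror-image molecule and served as the control compound at each time. The labels do not name the compound, and no group at 4 h or 8 h was left without a compound. Each line is 1 established cell line. The replicates are labelled biological, and the labels do not say how their cultures were kept apart, so the p-values measure only the spread between these samples.

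BET proteins are bromodomain readers of acetylated histones, and the MYC gene is among the best known genes whose transcription depends on them. MYC binds DNA only as a dimer with MAX and activates genes of growth and ribosome production. The MXD proteins, MXI1 and MNT also dimerize with MAX, occupy the same E-box sites and recruit SIN3 and histone deacetylases to repress them. MGA joins MAX in a polycomb complex, and MLX takes the place of MAX for the glucose-sensing factors MondoA (MLXIP) and ChREBP (MLXIPL).

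The network reads the E-box CACGTG, and the stretches below are shown because 3 of its own antagonists or partners carry that word just upstream of an annotated start. RefSeq windows of GRCh38.p14, from 250 bases before to 50 bases after each start, matched 9 of the 10 listed genes in 14 windows. MYC itself had no window, so its start was not searched, while MGA was searched. The motif is its own reverse complement, so 1 search covers both strands. It was found in 1 window each of MXD4 at position -238, MNT at position -193 and MLX at position -50, counted from the start to its first base. Of all 35116 windows, 7.26% hold it. PRMT3, a textbook MYC target that fell in LP-1, and DDX31, whose level followed MYC closely, are shown beside them as examples. NOP16, POLR1B and CAD, textbook targets that also fell in LP-1, held no E-box in any window. APEX1, EIF4E, FBL, HSPD1, LDHA, PPAT and SRM held an E-box and were not called with the inhibitor over the enantiomer. PPRC1 and PALB2, which also followed MYC closely, held none, and that of UTP25 lay after its start, at position 15. The capitals mark the E-box, and each line reads 5′ to 3′ on the strand of the gene, with its GRCh38.p14 position. The arrays were processed on hg19, so these positions serve only to place the sequences, and a match is a description of letters, not of binding.
MXD4 (chr4:2262322-2262359, minus strand): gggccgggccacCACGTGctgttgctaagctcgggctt
MNT (chr17:2401228-2401273, minus strand): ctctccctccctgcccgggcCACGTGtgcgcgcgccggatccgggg
MLX (chr17:42567030-42567075, plus strand): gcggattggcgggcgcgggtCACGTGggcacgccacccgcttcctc
PRMT3 (chr11:20387509-20387554, plus strand): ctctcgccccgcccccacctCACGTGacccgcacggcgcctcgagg
DDX31 (chr9:132669984-132670025, minus strand): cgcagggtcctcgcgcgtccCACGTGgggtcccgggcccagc

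MXD1 is the antagonist called higher with the inhibitor in the mean over both lines and both times, a comparison added after the values were seen. It was called in no single comparison of inhibitor with enantiomer. Nor was it called in the mean of either line alone (limma adjusted p = 0.0527 in LP-1 and 0.0667 in Raji). The upstream sequence of MXD1 is shown whole because of the call in the mean over both lines. The 250 bases before its start hold no E-box and carry 2 GC boxes, the word GGGCGG bound by SP family factors, at positions -123 and -53. The GC box was searched on both strands and stands in 45.0% of all windows. It can share an end base with an E-box. None of the 14 windows of the network genes searched, which leave out MYC, held TATAAA, which 11.5% of windows hold. The capitals mark the GC boxes.
MXD1 (chr2:69914859-69915108, plus strand): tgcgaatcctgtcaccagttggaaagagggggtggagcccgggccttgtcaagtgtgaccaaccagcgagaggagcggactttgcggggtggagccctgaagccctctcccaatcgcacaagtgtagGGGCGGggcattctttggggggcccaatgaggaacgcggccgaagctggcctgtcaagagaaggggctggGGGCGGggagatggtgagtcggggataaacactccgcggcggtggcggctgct

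All values are log2 expression values per probe set, so a difference of 1 is a doubling, and levels of different probe sets are not set against each other. The array medians ran from 5.132 to 5.395, and the 2 replicates of a group correlated with Pearson's r of 0.9731 to 0.989 over all probe sets. Plasma cell markers were above the array median for 8 of 8 genes in LP-1 and 5 of 8 in Raji. B cell markers were above it for 3 of 7 in LP-1 and 7 of 7 in Raji. T and NK cell markers gave 1 of 7 in each line, namely NKG7, and myeloid markers 0 of 4 in each. Epithelial and fibroblast markers gave 0 of 6 in LP-1 and 1 of 6 in Raji. HEXIM1, a gene known to rise under BET inhibition, rose in all 4 comparisons of inhibitor with enantiomer. The LP-1 increases were 1.04 and 1.45 at 4 h and 8 h and the Raji increases 1.93 and 1.90 (limma adjusted p = 0.00269, 0.000108, 0.000101 and 0.000125).

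MYC fell in both lines at both times, and it was the only one of the 9 network genes to pass the test in any of the 4 comparisons of inhibitor with enantiomer. In LP-1 the untreated arrays read 9.33 and 9.76, and those with the enantiomer 9.59 and 9.58 at 4 h and 9.37 and 9.47 at 8 h. With the inhibitor, the LP-1 arrays read 7.38 and 7.18 at 4 h and 7.66 and 7.49 at 8 h. Every inhibitor array of LP-1 lay below all 6 other arrays of that line. In Raji, the untreated arrays read 8.35 and 8.59, and those with the enantiomer 8.36 and 8.42 at 4 h and 8.62 and 8.40 at 8 h. The Raji inhibitor arrays read 6.97 and 7.00 at 4 h and 6.99 and 7.23 at 8 h, again below all others of the line.

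**Figure D1:**
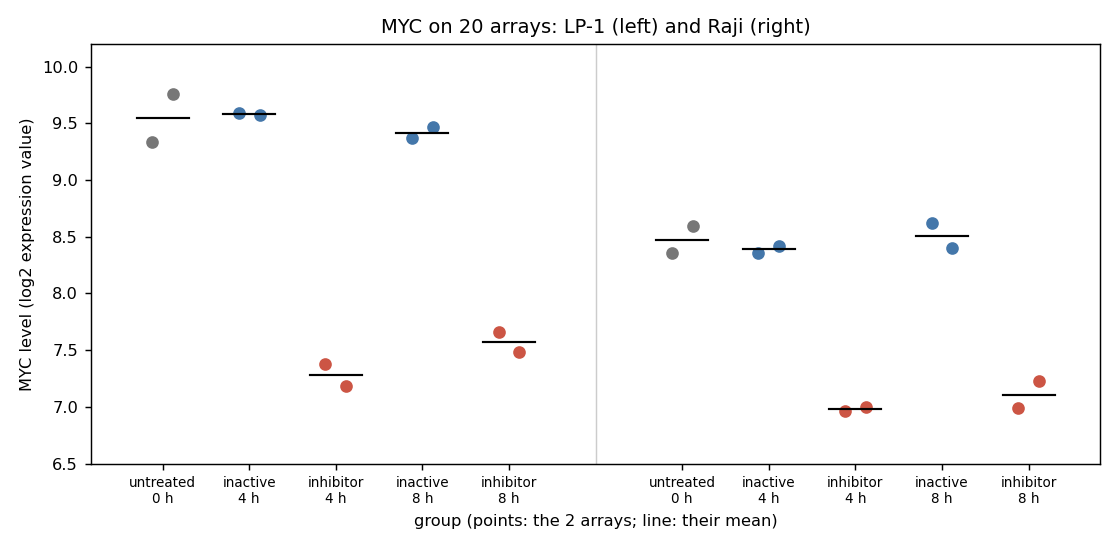
MYC level (log2 expression value, vertical axis) on each of the 20 arrays by group, LP-1 on the left and Raji on the right, with points for the 2 replicates and a line at their mean. The inhibitor arrays lie at 7.18 to 7.66 in LP-1 and 6.97 to 7.23 in Raji, below every untreated or enantiomer array of the same line.

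As fold changes against the enantiomer at the same time, MYC in LP-1 fell by 2.30 on the log2 scale at 4 h (SE 0.155, 95% interval -2.64 to -1.97, a 4.94-fold drop, limma adjusted p = 5.25e-05). At 8 h it fell by 1.85 (interval -2.18 to -1.51, 3.60-fold, adjusted p = 7.19e-05). The Raji arrays also fell, by 1.40 at 4 h (interval -1.74 to -1.07, 2.65-fold, adjusted p = 0.00129) and by 1.40 at 8 h (interval -1.74 to -1.07, 2.64-fold, adjusted p = 0.00101). The other 8 network genes did not pass in any of these 4 comparisons. Over all probe sets, 2.28% and 5.73% passed in LP-1 at 4 h and 8 h, and 1.78% and 1.88% in Raji. Those that passed downward made up 1.9%, 1.97%, 0.341% and 1.05% in the same order. MYC kept its call in each of the 4 comparisons under all 12 alternative settings, with each of the 4 arrays compared left out in turn among them.

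The split of those background calls into higher and lower moved with the scaling of the arrays. In LP-1 at 4 h, 83 probe sets were higher and 419 lower as deposited, 126 and 256 after quantile normalization, and 106 and 296 after median centring of every array. At 8 h in LP-1 the splits were 828 and 434, 832 and 713, and 600 and 603 in that order. In Raji at 4 h they were 316 and 75, 278 and 176, and 230 and 84. MYC stayed lower under each of these scalings.

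**Figure D2:**
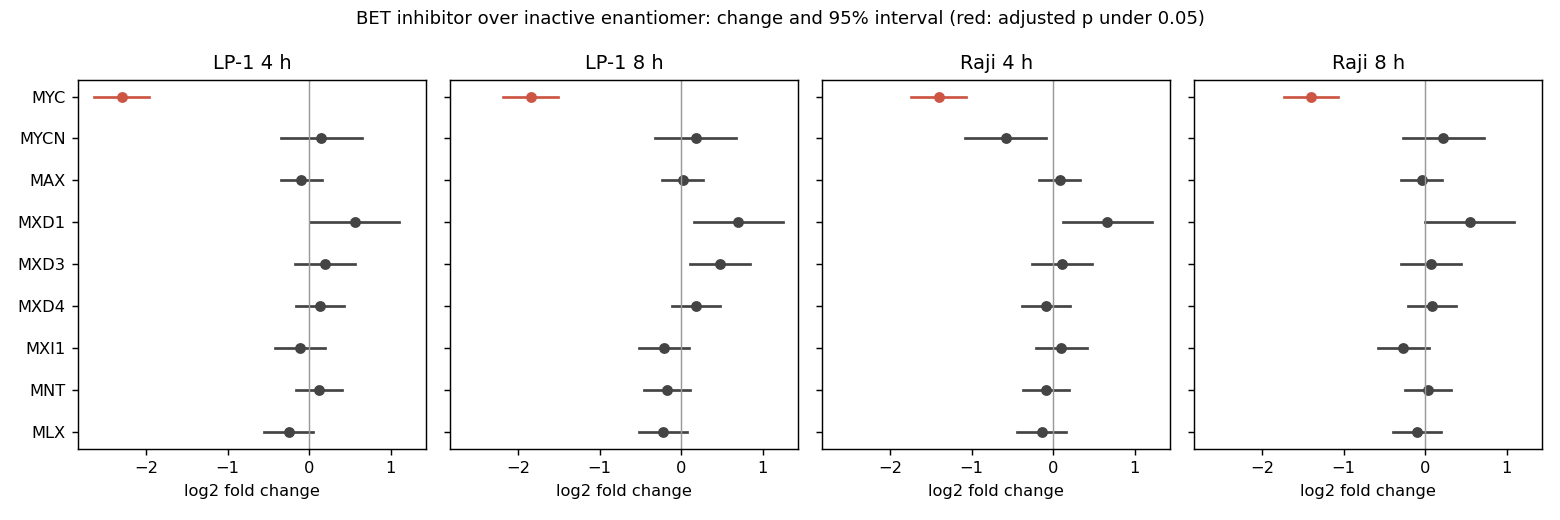
Change of each of the 9 measured network genes (log2 fold change, inhibitor over enantiomer, horizontal axis) with its 95% interval, in 1 panel per line and time; red marks an adjusted p under 0.05. MYC alone is red, at -2.30 and -1.85 in LP-1 and -1.40 in both Raji panels, and MXD1 lies at 0.55 to 0.70 in all 4.

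Against untreated cells the drop was of like size. MYC fell by 2.27 at 4 h and 1.97 at 8 h in LP-1, while Raji levels fell by 1.49 and 1.36 (limma adjusted p = 3.49e-05, 2.44e-05, 0.0012 and 0.00147). These comparisons use the same inhibitor arrays as those with the enantiomer, so they are no separate evidence. In them 1, 2, 1 and 1 of the 9 network genes passed, all lower, where 6.73%, 7.66%, 1.26% and 2.26% of all probe sets passed and 6.0%, 5.68%, 0.595% and 1.22% passed downward. The gene beside MYC in LP-1 at 8 h was MXI1. The split of all calls here, higher and lower, went from 160 and 1321 to 260 and 559 under quantile normalization in LP-1 at 4 h, and from 434 and 1251 to 734 and 1108 at 8 h. In Raji at 8 h it went from 230 and 268 to 309 and 240 under median centring.

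The enantiomer left MYC near its untreated level. The differences were 0.04 and -0.13 in LP-1 and -0.09 and 0.04 in Raji at 4 h and 8 h, and the 95% interval that reached furthest from 0, of 4 equally wide, ran from -0.46 to 0.21. With limma, 0 of the 9 network genes passed in each of the 4 comparisons of enantiomer with untreated cells, where 0.0136% and 0.504% of all probe sets passed in LP-1 and 0.0% at either time in Raji. At an unadjusted p under 0.05, 0, 1, 0 and 1 network genes passed, where 4.95%, 15.1%, 7.91% and 4.52% of all probe sets did. They were MXI1 (-0.42, adjusted p = 0.19) at 8 h in LP-1 and MNT in Raji at 8 h (-0.32, adjusted p = 0.996).

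Ordered by their means, the MYC levels of the 10 groups fell into 3 tiers. The LP-1 groups without inhibitor led, at 9.59 ± 0.0124 (SD, n = 2) with enantiomer at 4 h, 9.55 ± 0.301 untreated and 9.42 ± 0.0688 with enantiomer at 8 h, and neighbours among them overlapped. The Raji groups without inhibitor followed, at 8.51 ± 0.156, 8.47 ± 0.167 and 8.39 ± 0.0398 for enantiomer at 8 h, untreated and enantiomer at 4 h, also with overlapping neighbours. The inhibitor groups were lowest, at 7.57 ± 0.119 and 7.28 ± 0.139 for LP-1 at 8 h and 4 h and 7.11 ± 0.171 and 6.98 ± 0.0238 for Raji at 8 h and 4 h. The gaps between tiers were 0.908 and 0.816, with no shared range. Within the lowest tier the LP-1 arrays at 8 h lay above those at 4 h, while LP-1 at 4 h overlapped Raji at 8 h.

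The drop in MYC was deeper in LP-1 than in Raji by 0.90 at 4 h (95% interval 0.42 to 1.375, unadjusted p = 0.00134), which did not pass after adjustment (limma adjusted p = 0.104). At 8 h the difference was 0.44 (interval -0.03 to 0.92, adjusted p = 0.588). With limma 0 of the 9 network genes passed in either difference between lines, where 0.114% and 0.245% of all probe sets passed. At an unadjusted p under 0.05, 2 network genes passed at 4 h, MYC and MYCN, and 0 at 8 h, where 15.2% and 9.04% of all probe sets did. Quantile normalization moved the median of all probe sets in the difference at 4 h by -0.13, and median centring by -0.11, and the split of all calls went from 24 higher and 1 lower to 11 and 5, and to 4 and 0. A p above the threshold does not show that the lines respond alike.

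Between 4 h and 8 h the MYC response lessened by 0.46 in LP-1 (interval -0.02 to 0.93, limma adjusted p = 0.404) and by 0.00 in Raji (interval -0.47 to 0.48, adjusted p = 1.0). None of the 9 network genes passed by limma in either line (0 and 1 at an unadjusted p under 0.05, beside 13.2% and 5.71% of all probe sets), where 0.0% of all probe sets passed in each after adjustment. The median of all probe sets in LP-1 was itself 0.11 in this difference and moved by -0.15 with median centring.

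MYCN, the neuronal relative of MYC, gave no call in any comparison on the probe set used. Its groups ran from 5.80 ± 0.395 (SD, n = 2) in Raji with inhibitor at 4 h to 6.38 ± 0.192 in Raji with enantiomer at 4 h. Neighbouring groups overlapped along the whole order. The widest difference was in Raji at 4 h, where the enantiomer arrays read 6.52 and 6.25 and the inhibitor arrays 6.08 and 5.52 (-0.58, SE 0.229, limma adjusted p = 0.26). A second MYCN probe set did not share it, with a difference of 0.27 there (adjusted p = 0.57). The 2 probe sets also disagreed between lines: the one used averaged 6.08 in both, while the other averaged 6.10 in LP-1 and 4.65 in Raji and was lower in untreated Raji by 1.61 (adjusted p = 1.54e-05). No level of MYCN is therefore set between the lines.

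MAX, a partner shared by MYC, the MXD proteins and MNT, had the narrowest range of group means of the 9 genes. They lay between 8.07 ± 0.215 (LP-1 with enantiomer at 8 h) and 8.33 ± 0.00503 (untreated Raji; SD, n = 2). Inhibitor over enantiomer gave -0.10 and 0.02 in LP-1 and 0.08 and -0.04 in Raji at 4 h and 8 h. The 95% intervals of these 4 differences lay between -0.35 and 0.33. A change of MAX as large as that of MYC lies outside all of them.

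MXD1, an antagonist known to rise as many cell types differentiate, was the one network gene whose arrays lay above the enantiomer arrays in all 4 comparisons. In LP-1 the untreated arrays read 6.69 and 6.55, and those with the enantiomer 6.59 and 6.60 at 4 h and 6.32 and 6.53 at 8 h. The LP-1 inhibitor arrays read 6.86 and 7.45 at 4 h and 6.81 and 7.44 at 8 h. In Raji the untreated arrays read 4.55 and 4.86, and those with the enantiomer 4.76 and 5.25 at 4 h and 5.13 and 4.86 at 8 h. The mean percentiles of these Raji groups within their arrays were 40.1, 46.7 and 45.9, below the middle. How much of so low a level is background was not tested. The Raji inhibitor arrays read 5.72 and 5.62 at 4 h and 5.76 and 5.33 at 8 h.

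In each line all 4 inhibitor arrays of MXD1 thus lay above all 6 other arrays, as those of MYC lay below them. These were the only network genes so separated in either line, where 7.12% of all probe sets in LP-1 and 8.16% in Raji were. Between the 2 groups of a single comparison such separation is common: 44.0%, 44.2%, 43.6% and 40.3% of all probe sets showed it in LP-1 at 4 h and 8 h and Raji at 4 h and 8 h, and 5, 6, 7 and 3 of the 9 network genes.

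Single comparisons did not carry MXD1 past the test. The differences were 0.56 and 0.70 in LP-1 and 0.66 and 0.55 in Raji at 4 h and 8 h (SE 0.251 in each, limma adjusted p = 0.334, 0.141, 0.24 and 0.382). The mean response over both lines and both times, a comparison added after these values were seen, was 0.62 (SE 0.126, 95% interval 0.34 to 0.89, adjusted p = 0.00607). MXD1 passed there under all 23 other settings, with differences of 0.54 to 0.70. In that mean MXD1 was higher and MYC lower (-1.74, adjusted p = 1.17e-07), so 2 of the 9 network genes passed. Of all probe sets 11.7% passed, 6.11% upward and 5.61% downward.

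Taken by line, the mean response of MXD1 was 0.63 in LP-1 (adjusted p = 0.0527) and 0.61 in Raji (adjusted p = 0.0667). MYC was then the only one of the 9 network genes called, where 7.06% of all probe sets passed in LP-1 and 6.29% in Raji, 4.44% and 1.99% downward. Quantile normalization moved the split of the Raji calls from 947 higher and 438 lower to 868 and 707. In LP-1, MXD1 passed without the first inhibitor replicate at 4 h (0.78, adjusted p = 0.0294) or at 8 h (0.79, adjusted p = 0.0269). Those were the lower of the 2 readings in both groups, whose replicates stood apart by SDs of 0.415 and 0.448. Against untreated cells, MXD1 was 0.53 and 0.50 higher in LP-1 and 0.97 and 0.84 in Raji, with adjusted p of 0.249, 0.293, 0.0928 and 0.118.

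**Figure D3:**
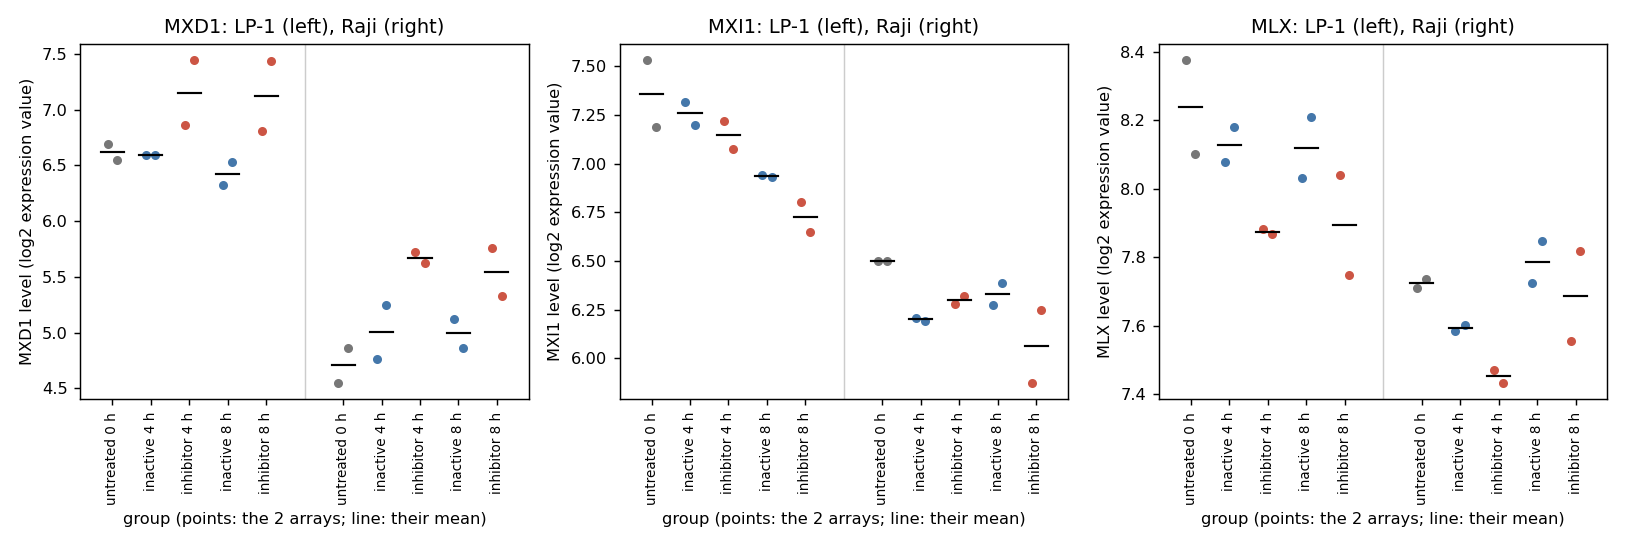
Levels of MXD1, MXI1 and MLX (log2 expression value, vertical axes) on each of the 20 arrays by group, LP-1 on the left of each panel and Raji on the right, with points for the 2 replicates and a line at their mean. MXD1 inhibitor arrays start at 6.81 in LP-1 and 5.33 in Raji, above the highest other arrays at 6.69 and 5.25; all 3 genes lie lower in untreated Raji than in untreated LP-1.

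MXI1, another MXD-type antagonist, passed in none of the 4 comparisons of inhibitor with enantiomer. The differences were -0.11 and -0.21 in LP-1 and 0.10 and -0.27 in Raji (limma adjusted p = 0.794, 0.487, 0.839 and 0.485). In LP-1 the untreated arrays read 7.53 and 7.19, and by 8 h the enantiomer arrays read 6.94 and 6.93 and the inhibitor arrays 6.80 and 6.65. Both treated groups at 8 h lay below the untreated pair: MXI1 fell by 0.63 with the inhibitor (SE 0.143, adjusted p = 0.0172) and differed by -0.42 with the enantiomer (adjusted p = 0.19). The call was lost after quantile normalization (-0.49, adjusted p = 0.107) and when LP-1 arrays alone were fitted (adjusted p = 0.076). It was also lost without the first untreated replicate (-0.46, adjusted p = 0.173) or without the second inhibitor replicate (-0.56, adjusted p = 0.0984).

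MXD3, MXD4 and MNT complete the measured antagonists, and none was called in any comparison. MXD3, which is expressed in proliferating cells, had group means from 5.64 ± 0.026 to 6.11 ± 0.0734, the lowest and highest being LP-1 at 8 h with enantiomer and with inhibitor. Its arrays there read 5.62 and 5.65 against 6.16 and 6.06 (0.48, SE 0.17, limma adjusted p = 0.137), and its other 3 differences were 0.20, 0.11 and 0.07. MXD4, whose upstream E-box is shown above, ran from 5.48 ± 0.114 in Raji with enantiomer at 8 h to 6.05 ± 0.0668 in LP-1 with inhibitor at 8 h, with differences of 0.13, 0.19, -0.09 and 0.09. MNT, a widely expressed antagonist, ran from 5.44 ± 0.17 to 6.06 ± 0.156, with differences of 0.12, -0.17, -0.09 and 0.03.

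MLX, the MAX-like partner of MondoA and ChREBP, lay lower with the inhibitor in each of the 4 comparisons without passing in any. The enantiomer arrays of LP-1 read 8.08 and 8.18 at 4 h and 8.03 and 8.21 at 8 h, and the inhibitor arrays 7.88 and 7.87, then 8.04 and 7.75. Those of Raji read 7.59 and 7.60 at 4 h and 7.72 and 7.85 at 8 h with the enantiomer, and 7.47 and 7.43, then 7.55 and 7.82, with the inhibitor. The groups overlapped at 8 h in both lines and not at 4 h, where 44.0% of all probe sets in LP-1 and 43.6% in Raji did not overlap either. The differences were -0.25, -0.23, -0.14 and -0.10 (limma adjusted p = 0.441, 0.423, 0.733 and 0.87), and their mean was -0.18 (SE 0.0685, adjusted p = 0.122).

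In untreated cells 4 of the 9 network genes were lower in Raji than in LP-1 and none was higher. MYC was lower there by 1.07 (SE 0.155, limma adjusted p = 0.000164), MXD1 by 1.91 (SE 0.251, adjusted p = 7.31e-05), MXI1 by 0.86 (SE 0.143, adjusted p = 0.000511) and MLX by 0.52 (SE 0.137, adjusted p = 0.0134). Of all probe sets 24.3% passed here and 17.5% were lower. The untreated Raji level of MXD1 stood below the middle of its arrays, at a mean percentile of 40.1. MAX, MXD3, MXD4 and MNT differed by 0.03, -0.04, -0.08 and -0.04.

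The scaling bears on this comparison as well. Median centring moved the median of all probe sets by 0.13 and quantile normalization by 0.10, and the split of calls went from 1495 higher and 3847 lower to 2231 and 3185, and to 2566 and 3031. MLX lost its call under both, at -0.38 (adjusted p = 0.0573) and -0.24 (adjusted p = 0.304). It also lost it without the first untreated LP-1 replicate (-0.38, adjusted p = 0.145), without the first untreated Raji replicate (-0.50, adjusted p = 0.0736) and without the second (-0.53, adjusted p = 0.0611). MYC, MXD1 and MXI1 kept their calls in all 11 settings, MYC with differences of -1.29 to -0.86. Bulk arrays cannot tell less RNA in each cell from fewer cells that express a gene.

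Over the 20 arrays, with each line centred on its own mean, the network genes followed MYC to different degrees. Pearson's r to MYC was -0.809 for MXD1, -0.556 for MXD3 and -0.368 for MXD4. It was 0.693 for MLX, 0.461 for MXI1, 0.333 for MAX, 0.159 for MNT and -0.0533 for MYCN. All points share the same treatment groups, so these are descriptions of the arrays. Among 7226 single-symbol genes above the median level, those closest to MYC were UTP25, a factor of small ribosomal subunit assembly (r = 0.972), PPRC1, a PGC-1 related coactivator (0.955), DDX31, a nucleolar helicase (0.947), TWNK, the mitochondrial DNA helicase (0.943), and PALB2, the partner of BRCA2 (0.942). Those most opposed were SAT1, which starts polyamine breakdown (-0.947), NFKBIA, the inhibitor of NF-kB (-0.945), and CSRNP2 (-0.937). UTP25 changed by -1.59, -1.25, -0.91 and -0.88 in the 4 comparisons and SAT1 by 1.78, 2.49, 1.30 and 1.17. These changes come from the same arrays as the likeness.

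Gene lists around the network were set beside all 22011 probe sets, with inhibitor over enantiomer. In LP-1, 83 probe sets rose and 419 fell at 4 h, and 828 and 434 at 8 h. The Raji counts were 316 and 75 at 4 h, then 182 and 232. At an unadjusted p under 0.05, 14.3%, 18.9%, 14.1% and 13.0% passed. Of 3 further network members, MYCL, MLXIP and MLXIPL, none was called by limma in any of the 4 comparisons, with 0 of 3 at an unadjusted p under 0.05 and differences from -0.26 to 0.26. Of 11 measured MYC cofactors, 1 fell in LP-1 at 4 h (KAT5, -0.72), 1 in LP-1 at 8 h (HCFC1, -0.49), 0 in Raji at 4 h and 1 in Raji at 8 h (KAT2A, -0.71), with adjusted p of 0.0282, 0.0311 and 0.0173. KAT5 and KAT2A are acetyltransferases that MYC recruits, and HCFC1 a host cell factor that binds it. The list medians were -0.20, -0.09, -0.03 and -0.10, where those of all probe sets were -0.04, 0.06, 0.01 and 0.00. The cofactor calls were lost on leaving out 3, 3 and 4 of the 4 arrays compared (adjusted p up to 0.201, 0.173 and 0.125). Of 9 measured repressor partners of MXD and MNT, which belong to the SIN3 complexes, limma called 0 in each of the 4 (1, 2, 1 and 2 at an unadjusted p under 0.05).

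Of 10 measured genes that set the half-life of MYC protein, 3 were higher with the inhibitor than with the enantiomer in LP-1 at 8 h: FBXW7, the ubiquitin ligase subunit that targets MYC (0.71, limma adjusted p = 0.0139), GSK3B, the kinase that marks MYC for it (0.67, adjusted p = 0.025), and PIM1, a kinase that stabilises MYC (0.73, adjusted p = 0.018). Of all 22011 probe sets 828 were higher in that comparison. FBXW7 arrays read 7.09 and 7.12 with the enantiomer, 7.79 and 7.86 with the inhibitor and 7.46 and 7.49 untreated. The enantiomer arm was itself low there: all 10 genes lay below untreated with it (median -0.39, 0 called by limma and 5 at an unadjusted p under 0.05). Of all probe sets 38.7% lay above untreated with it (median -0.08), and 15.1% passed unadjusted. Median centring moved the median of all probe sets by 0.11. Against untreated cells the inhibitor at 8 h left FBXW7, GSK3B and PIM1 at 0.35, 0.41 and 0.29 (adjusted p = 0.2, 0.153 and 0.346), and of the 10 genes 0 rose and 1, SKP2, fell. TRIM32, a ubiquitin ligase, fell by 1.12 (adjusted p = 0.0332) at 4 h in that line, and 0 of 10 passed at either time in Raji (4 and 3 at an unadjusted p under 0.05). In Raji the differences of FBXW7 were 0.63 and 0.32 (adjusted p = 0.0517 and 0.38). In the tests of the difference between lines and between times, limma called 0 of the 10 in each (3 and 1 at an unadjusted p under 0.05 between lines, 5 and 0 between times). Of 9 measured polycomb partners of MGA, RYBP alone was called, with 0.67 in LP-1 at 8 h and 0.84 in Raji at 4 h (adjusted p = 0.013 and 0.00995). FBXW7, GSK3B and PIM1 lost their calls without any 1 of the 4 arrays (adjusted p 0.0502 to 0.134), TRIM32 without 3 (up to 0.291), and RYBP without 2 in LP-1 (up to 0.101) and any 1 in Raji (up to 0.0913). TRIM32 also lost it after quantile normalization (adjusted p = 0.0726) and median centring (adjusted p = 0.0571).

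Of 4 known targets of MondoA and MLX, TXNIP rose in all 4 comparisons and ARRDC3 in 3, while MLX itself was not called. TXNIP, the arrestin that limits glucose uptake and the best known target of the pair, read 7.45 and 7.60 with the enantiomer and 8.41 and 8.83 with the inhibitor in LP-1 at 4 h. At 8 h it read 6.94 and 7.18 against 9.02 and 9.06. In Raji it read 8.34 and 8.76 against 9.69 and 9.87 at 4 h and 8.82 and 8.84 against 9.80 and 9.91 at 8 h. It rose by 1.09, 1.97, 1.23 and 1.03 (limma adjusted p = 0.00552, 7.19e-05, 0.00399 and 0.00895). ARRDC3, its arrestin relative, rose by 1.17 in LP-1 at 8 h and by 1.02 and 0.73 in Raji (adjusted p = 0.00152, 0.00939 and 0.04), and differed by 0.09 in LP-1 at 4 h. ARRDC4 and KLF10 were not called. ARRDC4, another arrestin relative, differed by 0.23, 0.42, 0.57 and -0.80, and in Raji at 8 h its inhibitor arrays read 4.99 and 4.14 against 5.40 and 5.32 (adjusted p = 0.209). KLF10, a zinc finger repressor, differed by 0.34, 0.04, -0.15 and -0.27. Over untreated cells 1, 2, 1 and 2 of the 4 rose with the inhibitor, with medians of 0.27, 0.44, 0.33 and 0.36. With the enantiomer alone 2, 4, 3 and 1 of the 4 lay below untreated, and limma called 0 in each. The medians there were -0.01, -0.35, -0.17 and 0.12. ARRDC3 in LP-1 read 7.86 and 8.08 untreated, and at 8 h 7.46 and 7.45 with the enantiomer and 8.49 and 8.76 with the inhibitor.

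Over the enantiomer 1, 2, 2 and 2 of the 4 genes rose, where 83, 828, 316 and 182 of all 22011 probe sets did. The list medians were 0.29, 0.80, 0.80 and 0.23. TXNIP lost its call in LP-1 at 4 h without the first enantiomer replicate (1.01, adjusted p = 0.0742) and in Raji at 4 h without the second inhibitor replicate (1.14, adjusted p = 0.0682). In Raji at 8 h it lost it without the second inhibitor replicate or either enantiomer replicate, with adjusted p of 0.0521 to 0.078. ARRDC3 lost its Raji calls without 2 of the arrays at 4 h (adjusted p up to 0.12) and without any 1 at 8 h (up to 0.245).

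Genes that textbooks name as activated by MYC had medians below that of all probe sets, and the calls in the 4 comparisons were in LP-1. Of 20 measured, 17, 15, 14 and 18 had differences below 0 in LP-1 at 4 h and 8 h and Raji at 4 h and 8 h, and 2, 4, 0 and 0 fell (7, 7, 1 and 4 at an unadjusted p under 0.05). Of all probe sets 44.9%, 59.0%, 51.5% and 49.9% lay above 0, and 14.3%, 18.9%, 14.1% and 13.0% passed unadjusted, so the 1 of 20 in Raji at 4 h lay under the background. The list medians were -0.15, -0.21, -0.08 and -0.23. With the enantiomer alone 16, 18, 15 and 9 of the 20 lay below untreated, with medians of -0.10, -0.20, -0.16 and 0.03. Limma called 0 of the 20 in each. At an unadjusted p under 0.05, 0, 4, 3 and 2 passed, beside 4.95%, 15.1%, 7.91% and 4.52% of all probe sets. Over untreated cells 5, 6, 0 and 0 fell with the inhibitor by limma, with medians of -0.31, -0.39, -0.23 and -0.25. Downward calls there made up 6.0%, 5.68%, 0.595% and 1.22% of all probe sets. In LP-1, NOP16, a nucleolar ribosome assembly factor, fell by 1.07 and 1.67 (limma adjusted p = 0.0193 and 0.00079). POLR1B, the second largest subunit of RNA polymerase I, fell by 1.57 and 1.43 (adjusted p = 0.022 and 0.0201). PRMT3, the arginine methyltransferase whose E-box is shown above, fell by 1.02 at 8 h (adjusted p = 0.00156), as did CAD, which starts pyrimidine synthesis, by 0.58 (adjusted p = 0.0422). Without single arrays the calls of POLR1B at both times, NOP16 at 4 h and CAD were lost in 3, 3, 3 and 4 of 4 cases (adjusted p up to 0.169, 0.145, 0.194 and 0.209).

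In Raji the same 4 genes differed by -0.47, -0.62, -0.08 and -0.16 at 4 h and by -0.66, -0.50, -0.44 and -0.33 at 8 h, none called. In the test of the difference between lines, limma called 0 of the 20 at 4 h and at 8 h (1 and 2 at an unadjusted p under 0.05). NOP16 read 9.42 and 9.70 against 8.32 and 8.67 in LP-1 at 4 h, and 9.36 and 9.61 against 7.73 and 7.90 at 8 h. In Raji it read 9.06 and 9.66 against 8.73 and 9.04, then 9.72 and 9.51 against 9.03 and 8.88. Its inhibitor arrays lay below the enantiomer arrays in each of the 4 comparisons. Of the 15 listed genes that were measured and had a RefSeq window, 8 held an E-box, beside 11.3% of 11386 genes measured on the arrays. The list was chosen from knowledge of MYC targets, among them genes known for such sites.

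Genes that textbooks name as repressed by MYC had medians above that of all probe sets. Of 11 measured, 6, 9, 8 and 9 had differences above 0, and 2, 3, 0 and 1 rose (3, 5, 2 and 2 at an unadjusted p under 0.05), with list medians of 0.13, 0.43, 0.07 and 0.16. Of all 22011 probe sets 83, 828, 316 and 182 rose. The share of all probe sets above 0 was 44.9%, 59.0%, 51.5% and 49.9%, and 14.3%, 18.9%, 14.1% and 13.0% passed unadjusted. Against untreated cells 2, 0, 0 and 0 rose and 0, 1, 0 and 0 fell, the last being NDRG2 (-0.57, limma adjusted p = 0.0253), with medians of 0.03, 0.15, 0.00 and 0.02. Of all probe sets 160, 434, 146 and 230 rose there and 1321, 1251, 131 and 268 fell. With the enantiomer alone 9, 8, 9 and 8 of the 11 lay below untreated, and limma called 0 in each (1, 4, 1 and 3 at an unadjusted p under 0.05). Of all probe sets 43.6%, 38.7%, 42.2% and 50.9% lay above untreated with it, and 4.95%, 15.1%, 7.91% and 4.52% passed unadjusted. The CDK inhibitor CDKN1A rose by 1.48 and 1.04 in LP-1 (limma adjusted p = 0.0166 and 0.0487). It lost the first of these calls without the second inhibitor replicate (1.27, adjusted p = 0.0592) or the second enantiomer replicate (0.99, adjusted p = 0.155), the latter reading 4.88 beside 5.86. GADD45B, a stress response gene, rose by 0.73 at 4 h in LP-1 (adjusted p = 0.0286), and its relative GADD45A by 0.71 at 8 h (adjusted p = 0.0146). The integrin ITGB1 rose by 0.62 there (adjusted p = 0.0483). Over untreated cells these changes were 1.05 and 0.94 for CDKN1A (adjusted p = 0.0424 and 0.0621), 0.65 for GADD45B (0.0273), 0.39 for GADD45A (0.143) and 0.19 for ITGB1 (0.608). The CDKN1A call at 8 h was lost without 3 of the 4 arrays (up to 0.313) and after median centring (0.96, adjusted p = 0.0714), and the ITGB1 call without any 1 array (up to 0.277) and after median centring (adjusted p = 0.0895). GADD45A and GADD45B each lost theirs without 3 of the 4 arrays (up to 0.121 and 0.233).

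CDKN1B, which encodes the CDK inhibitor p27, rose in Raji at 8 h by 1.37 (limma adjusted p = 0.00895), from 4.96 and 5.16 with the enantiomer to 6.39 and 6.47. The untreated Raji arrays read 5.60 and 5.71, and the difference from them was 0.78 (adjusted p = 0.0949). Its other differences were 0.20 and 0.71 in LP-1 and 0.84 in Raji at 4 h, none called. The Raji call at 8 h was lost without either inhibitor replicate or the first enantiomer replicate (adjusted p 0.0546 to 0.0708). Over the 9 lists, 32 calls were made in the 4 comparisons, and 5 of them outlasted the removal of every array in turn: TXNIP, ARRDC3, NOP16, PRMT3 and TRIB1, all in LP-1 at 8 h. The other 27 were lost on leaving out at least 1 of the 4 arrays compared.

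**Figure D4:**
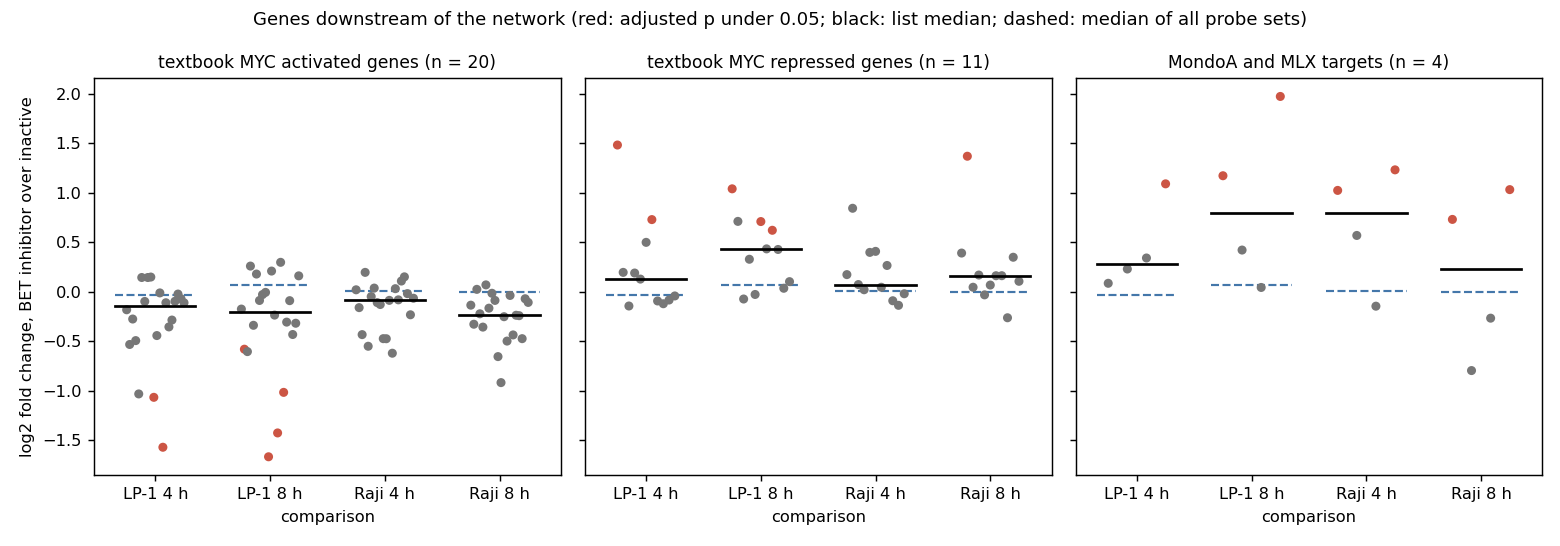
Change of every measured gene of 3 lists (log2 fold change, inhibitor over enantiomer, vertical axis) in the 4 comparisons: 20 textbook MYC activated genes, 11 textbook MYC repressed genes and 4 MondoA and MLX targets. Red points passed at an adjusted p under 0.05, black lines are list medians (-0.15, -0.21, -0.08 and -0.23 for the activated genes) and dashed lines the medians of all probe sets (-0.04 to 0.06).

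The mean response over both lines and both times, chosen after the values were seen, called more genes of these lists. Of the MYC activated genes 6 of 20 fell, among them NOP16 (-0.97, limma adjusted p = 9.39e-05), POLR1B (-1.03, adjusted p = 0.00101) and PRMT3 (-0.47, adjusted p = 0.000868). Of the MYC repressed genes 4 of 11 rose, led by CDKN1B (0.78, adjusted p = 0.00057) and CDKN1A (0.77, adjusted p = 0.00299). Of the cofactors 4 of 11 fell, KAT2A by 0.38 (adjusted p = 0.00211) and KAT5, HCFC1 and SKP2 by 0.26 to 0.30, and BRD8 rose by 0.44 (adjusted p = 0.00334). Among the 10 genes that set the half-life of MYC protein 3 rose and 1 fell. FBXW7 and GSK3B of these rose by 0.43 and 0.44 (limma adjusted p = 0.0019 and 0.00254). Among the 9 repressor partners 1 rose, the corepressor subunit SAP18, by 0.25 (adjusted p = 0.00778). Among the 9 polycomb partners of MGA 1 rose and 1 fell, and 2 of the 4 MondoA and MLX targets rose. These counts stand beside the background of 11.7% called in that mean response, 6.11% upward and 5.61% downward.

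Among 8 measured genes that lie near MYC on its chromosome, TRIB1 fell in all 4 comparisons and no other was called in them. In LP-1 at 4 h and 8 h 1.9% and 1.97% of all probe sets passed downward, and in Raji 0.341% and 1.05%. PVT1, POU5F1B and TRMT12 of this list were not measured. Over untreated cells 1, 2, 1 and 1 of the 8 fell, beside 6.0%, 5.68%, 0.595% and 1.22% of all probe sets. In the mean response over both lines and both times 1 fell and 1 rose, beside 5.61% and 6.11% of all probe sets. TRIB1, a pseudokinase scaffold for the COP1 ubiquitin ligase, read 9.35 and 9.36 with the enantiomer and 8.35 and 8.40 with the inhibitor in LP-1 at 4 h, and 8.94 and 9.01 against 8.11 and 8.11 at 8 h. In Raji it read 6.87 and 7.20 against 6.21 and 6.47, then 7.08 and 6.86 against 6.23 and 6.29. No inhibitor array overlapped its enantiomer pair. The LP-1 levels of TRIB1 fell by 0.98 and 0.86 and its Raji levels fell by 0.70 and 0.71 (limma adjusted p = 0.00391, 0.00393, 0.0267 and 0.0203). The LP-1 call at 4 h was lost without the second enantiomer replicate (-0.98, adjusted p = 0.0524). In Raji, 3 of the 4 arrays at 4 h and each of the 4 at 8 h took the call with them (adjusted p up to 0.158 and 0.131).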

How the data were processed

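RNA of 20 samples was hybridised to Affymetrix exon arrays after whole-transcript amplification and biotin labelling, per the labels' protocols. The deposited series table holds a log2 value for each probe set and array, made by the authors with RMA in Affymetrix Expression Console on hg19, per the submitters' processing notes, with no versions given. They were used as deposited. Symbols came from the platform's table: of 22011 probe sets, 14432 had 1 symbol, 2408 several and 5171 none. The number of arrays limits the precision.

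All 20 arrays and all probe sets entered 1 fit of limma 3.58.1 in R 4.3.3, with a coefficient for each of the 10 groups (10 residual and 2.59 prior degrees of freedom). The script was tested on simulated data. The fit gave 17 comparisons, and 3 mean responses were added after the values were seen. P-values were adjusted by Benjamini-Hochberg over all probe sets, two-sided, and a gene was called at an adjusted p under 0.05.

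Named genes were the listed network genes, HEXIM1, the 4 lowest p-values per list and line, and the 5 genes most and 3 least like MYC. Network genes and lists were chosen with earlier results of these data known. Alternatives were quantile normalization, median centring, a filter on low values, an intensity trend, robust variances, array weights, a replicate block, the arrays of 1 line alone and leaving out each array. RefSeq windows of GRCh38.p14 gave the sequences.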

Additional observations from a re-analysis of the deposited data

How the results depend on the processing

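The alternatives were applied to the counts of network genes called and to each called gene named. For MYCN, its second probe set was set beside the one used, with inhibitor over enantiomer and between the untreated lines. Of 320 alternative values of the counts, 306 kept the count within 1.5 times. For inhibitor over untreated in LP-1 at 8 h the count of 2 became 1 after quantile normalization and when LP-1 arrays alone were fitted, and ran from 1 to 2 as each array was left out, MXI1 being the gene lost. In Raji against untreated cells the count of 1 became 2 at 4 h after quantile normalization or with array weights, and 2 at 8 h with array weights, MXD1 being gained (adjusted p = 0.0431, 0.0145 and 0.0342). For the mean response over both times the count of 1 became 2 in LP-1 after quantile normalization, without the dimmest probe sets and with an intensity trend (MXD1, adjusted p = 0.0152, 0.0304 and 0.0464), and ran from 1 to 2 with arrays left out. In Raji it became 2 after quantile normalization and without the dimmest probe sets (adjusted p = 0.0436 and 0.0392). Where a left-out array leaves a group with 1 sample, that sample is assumed to vary like the other groups. No result that was called under either setting changed sign. Of 571 alternative values of single genes, 441 stayed on their side of the threshold, 129 lost the call and 1 gained it. The gain was that of the second MYCN probe set in untreated Raji over untreated LP-1 (-1.61). The uncalled MYCN differences in Raji changed sign between the probe sets, from -0.58 to 0.27 at 4 h and from 0.22 to -0.17 at 8 h.

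A replicate block left MYC at -2.30 and -1.85 in LP-1 and -1.40 and -1.40 in Raji and changed no count of network genes called. The labels state no pairing by replicate number. The deviations of same-numbered arrays correlated from -0.16 to 0.121 over 20 pairs of groups, with 1 pair over 0.1. With 2 replicates per group, such weak correlations cannot show that the samples were unpaired. With the block, KAT5 and TRIM32 in LP-1 at 4 h and CDKN1A and ITGB1 in LP-1 at 8 h were no longer called (adjusted p = 0.0504, 0.0624, 0.0725 and 0.0665).

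The SE of MXD1 was 0.251 in each single comparison, against differences of 0.55 to 0.70. Probe sets measure pooled RNA, and protein levels of MYC or its partners were not measured here.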
